A study of Arabidopsis thaliana with 16 samples.

Results

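Pattern receptors are plasma membrane proteins with which plants sense molecules typical of microbes and other attackers, and FLS2 (AT5G46330), EFR (AT5G20480), NILR1 (AT1G74360), CERK1 (AT3G21630), LYK4 (AT2G23770), LYK5 (AT2G33580) and their coreceptor BAK1 (AT4G33430) belong to this group in Arabidopsis thaliana. The deposited peak lists of the transcription factors WRKY33, WRKY18 and WRKY40 were searched for peaks that the authors had assigned to these 7 genes, taking for each peak the gene whose start the lists give as nearest. The 7 genes, all protein-coding, are among 37899 loci of chromosomes 1 to 5, which include non-coding loci such as tRNA genes. Of the 16600 deposited peaks, 24 were assigned to the 7 genes. All 24 were examined, and 6 of the 7 genes had at least 1.

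Binding was measured by ChIP-seq, that is, sequencing of the DNA that is precipitated together with a protein. Per the labels, 12-day-old seedlings of complementation lines carrying HA-tagged WRKY33, WRKY18 or WRKY40 were precipitated with an anti-HA antibody 2 h after transfer to medium with 1 µM flg22, or untreated at 0 h. Untagged Col-0 WT seedlings, treated for 2 h or untreated, served as negative controls in peak calling, and each of the 4 WT libraries was the control of all 3 lines at its own time and replicate. The series has 2 biological replicates of each line and time, which gives 6 HA libraries at 2 h, 6 at 0 h and 4 WT libraries without a peak list of their own. Neither the promoter driving each tagged factor nor the number of plant lines per factor is stated in the labels. Treatment, time and the exchange of medium cannot be told apart, since no untreated seedlings were sampled at 2 h. Whole seedlings were pooled, so that binding in more cells and stronger binding per cell cannot be told apart either.

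FLS2 is a leucine-rich repeat receptor kinase that binds flg22, a peptide of bacterial flagellin, and EFR is its counterpart for an epitope of the bacterial elongation factor EF-Tu. Both recruit BAK1, a coreceptor kinase, once the ligand is bound, and signalling leads to a burst of reactive oxygen, MAP kinase activation and transcription by factors that include WRKY proteins. CERK1, LYK4 and LYK5 carry LysM ectodomains and act in the perception of fungal chitin, while NILR1 is a leucine-rich repeat receptor kinase needed for responses to nematodes. WRKY factors bind the W-box, and WRKY33, WRKY18 and WRKY40 are themselves induced during pattern-triggered immunity.

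The lists differed in length, which sets how often any gene had a peak. At 2 h the WRKY33 lists held 1653 and 2656 peaks, the WRKY18 lists 1801 and 2994, and the WRKY40 lists 2017 and 3272. At 0 h the WRKY33 lists held 9 and 44 peaks, the WRKY18 lists 260 and 1843, and the WRKY40 lists 31 and 20, so that replicate 2 of WRKY18 stood apart. Replicate 1 is given before replicate 2 here and below. Depth per library is known only as 7 to 20 M reads, per the labels, and the median number of tags (sequenced fragments) per peak lay between 141 and 678 over the lists. A gene without a listed peak is therefore not shown to be unbound, and few genes of any kind had a listed peak at 0 h in WRKY33 or WRKY40.

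NILR1 and CERK1 had an assigned peak in all 6 libraries at 2 h, and in 1 of the 6 libraries at 0 h. They were the 2 of 7 genes with a peak in both replicates at 2 h for WRKY33, WRKY18 and WRKY40 alike. Over all loci, 3.1% met this rule for WRKY33, 3.5% for WRKY18 and 3.95% for WRKY40, and 1.56% had a peak in all 6 libraries. FLS2 and EFR had an assigned peak in 2 libraries at 2 h each, BAK1 and LYK4 in 1 each, and LYK5 in none; these 5 genes had no assigned peak at 0 h. With both replicates at 0 h required, 0 of the 7 genes had a peak for WRKY33, WRKY18 or WRKY40, against 0.00792%, 0.546% and 0% of all loci. At least 1 assigned peak in any of the 12 lists was found for 11.1% of all loci. Of the 24 peaks, 22 came from 2 h and 2 from 0 h, both in replicate 2 of WRKY18. The authors annotated 19 of the 24 as promoter peaks and 5 as intergenic, whereas 54.2% of all peaks were annotated as promoter peaks. The 24 are not independent, since the same site was listed in several libraries. A single NILR1 site and a single CERK1 site gave 7 promoter peaks each.

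**Figure D1:**
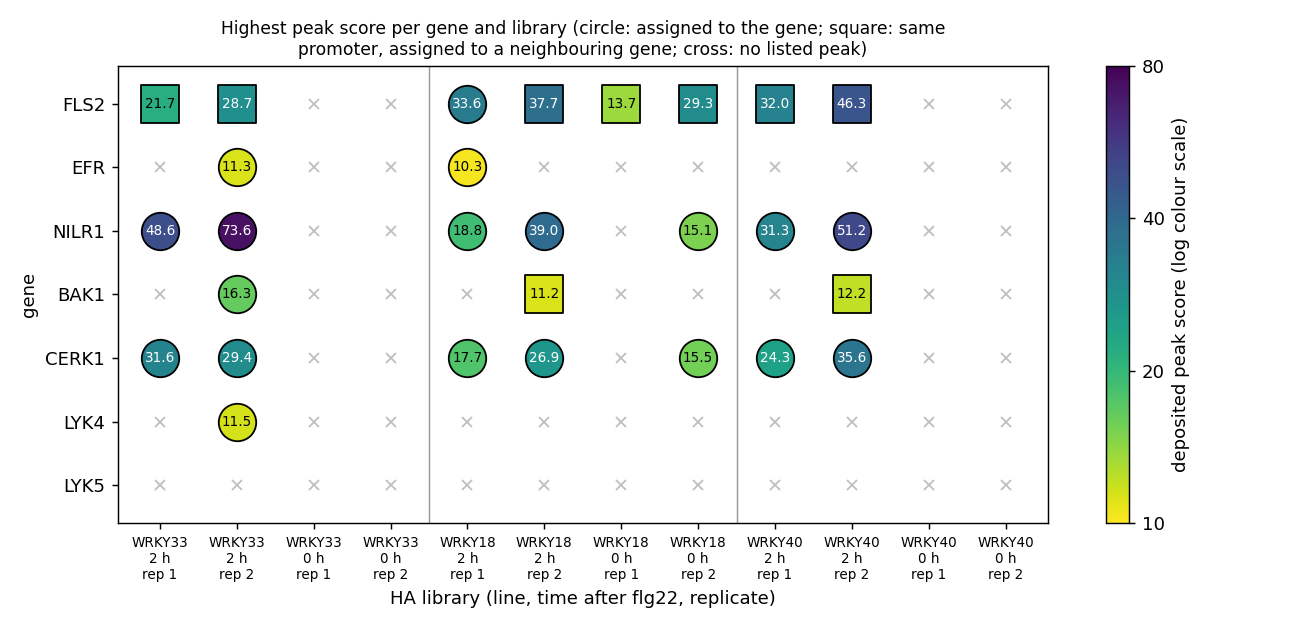
Highest deposited peak score of each gene (rows) in each of the 12 HA libraries (columns, by line, time and replicate). Circles are peaks assigned to the gene, squares are peaks at its promoter that the lists assign to a neighbouring gene, crosses are libraries without a listed peak, and colour gives the score on a log scale. NILR1 and CERK1 have circles in all 6 columns at 2 h, FLS2 has mostly squares, and the row of LYK5 is empty.

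A broad peak upstream of FLS2, the flg22 receptor, was listed in all 6 libraries at 2 h and in both WRKY18 libraries at 0 h. The lists gave that peak to FLS2 in 1 library only. The region spans chr5:18790034-18791941 (TAIR10; the gene is on the plus strand) and reaches from 1702 bp upstream of the FLS2 start to 205 bp downstream of it. It also covers the start of the tRNA gene AT5G46325, and in 7 of the 8 libraries the midpoint of the broad peak was nearer to that start. In 6 of these 7 the authors' annotation still named the FLS2 promoter, while replicate 2 of WRKY33 was annotated to the end of a transcript. Of all 9003 promoter peaks in the lists, 7.01% were assigned to a locus other than the one whose promoter they were annotated to. The peaks assigned to FLS2 itself were the broad one in replicate 1 of WRKY18 at 2 h and a separate narrow one in replicate 1 of WRKY40 at 2 h, with a score of 11.4 and its maximum 7 bp upstream of the start.

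Counting the broad peak whichever gene it was assigned to, a choice made after seeing the data, the scores of the FLS2 region were 21.7 and 28.7 in the WRKY33 line at 2 h, 33.6 and 37.7 in WRKY18 at 2 h, and 32.0 and 46.3 in WRKY40 at 2 h. Both WRKY33 scores were below all 4 scores of the other lines at 2 h. The tags behind them numbered 829 and 933 in the WRKY33 line, 3953 and 4204 in WRKY18, and 2315 and 3953 in WRKY40, against 15 to 49 tags in the WT libraries at the same peaks. These peaks differed in width, with 1116 and 1346 bp in WRKY33, 1744 and 1811 bp in WRKY18, and 1139 and 1813 bp in WRKY40. The authors' ratio of tags in the HA library to tags in WT averaged 10.7 ± 0.779 for WRKY33, 16.9 ± 0.732 for WRKY18 and 16.9 ± 1.44 for WRKY40 (SD, n = 2 each), again with both WRKY33 values below the rest. The highest scores of any peak were also lower in the WRKY33 lists, with 72.3 and 97.1, against 262 and 209 for WRKY18 and 195 and 193 for WRKY40. Ranked within its own list, the region gave values that overlapped between the lines. On a scale of rank percentiles, where 100 is the best-scoring peak of a list and 0 means no listed peak, it stood at 85.2 and 92.5 in the WRKY33 line, 87.1 and 91.3 in WRKY18, and 86.7 and 91.8 in WRKY40. The WRKY33 mean minus the mean of the other lines was -0.37 percentile points (exact permutation test over the 6 libraries, two-sided, p = 0.8, adjusted over all loci p = 0.965). By assigned peaks alone, FLS2 averaged 0 in WRKY33 and 26.0 in the other lines, a difference of -26.0 percentile points (exact permutation test, p = 0.733, adjusted p = 0.908).

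FLS2 was also the only one of the 7 genes whose promoter had a listed peak in both replicates of any line at 0 h. With peaks annotated to a promoter counted as well as assigned ones, 1 of 7 genes met this rule for WRKY18 at 0 h, against 0.567% of all loci. At 2 h, 3 of 7 genes then had a peak in both libraries of WRKY18 and of WRKY40, against 3.64% and 4.12% of all loci, and 2 of 7 for WRKY33, against 3.24%. In all 6 libraries at 2 h this gave 2 of 7 genes, NILR1 and CERK1, against 1.63% of all loci, and for WRKY33 and WRKY40 in both libraries at 0 h it gave 0 of 7, against 0.00792% and 0%. FLS2 is missing from these counts for WRKY33 because of the annotation of replicate 2; by overlap with the region it counts in all 6 libraries. In WRKY18 the FLS2 region scored 33.6 in replicate 1 and 37.7 in replicate 2 at 2 h, against 13.7 and 29.3 at 0 h. The scores at 2 h exceeded both scores at 0 h, and the ratio of 2 h to 0 h was 2.46 in replicate 1 and 1.29 in replicate 2. Ranked within its list, the region stood at percentiles 87.1 and 91.3 at 2 h, against 46.5 and 88.9 at 0 h. By rank, replicate 2 thus changed little, and its 0 h value was above that of replicate 1 at 2 h. At the peak as listed in each library, WT had 41 and 49 tags at 2 h, against 41 and 69 at 0 h. The WRKY18 library had 3953 and 4204 at 2 h, against 483 and 2159 at 0 h. These counts are not scaled to library size or to peak width, which was 1744 and 1811 bp at 2 h, against 1034 and 1762 bp at 0 h. The median tags per peak of the WRKY18 lists were 624 and 678 at 2 h, against 237 and 446 at 0 h. The authors' tag ratio at 2 h was 2.76 times that at 0 h in replicate 1 and 1.47 times in replicate 2. On the log2 scale the difference between 2 h and 0 h was 0.83 for the score and 1.01 for the tag ratio (exact permutation test of 2 against 2 libraries, p = 0.333 each, the smallest possible), with both 2 h libraries above both 0 h libraries.

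The maximum of the FLS2 peak fell at 3 places upstream of the gene. It lay 774 to 789 bp upstream of the start in both WRKY18 libraries at 2 h, and 776 bp upstream in replicate 2 of WRKY33 and of WRKY40 at 2 h. In replicate 1 of WRKY40 at 2 h and replicate 1 of WRKY18 at 0 h it lay 1216 and 1197 bp upstream. In replicate 1 of WRKY33 at 2 h and replicate 2 of WRKY18 at 0 h it lay 624 and 620 bp upstream. All 3 places lie within the extent of the broad peak in each of the 8 libraries.

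**Figure D2:**
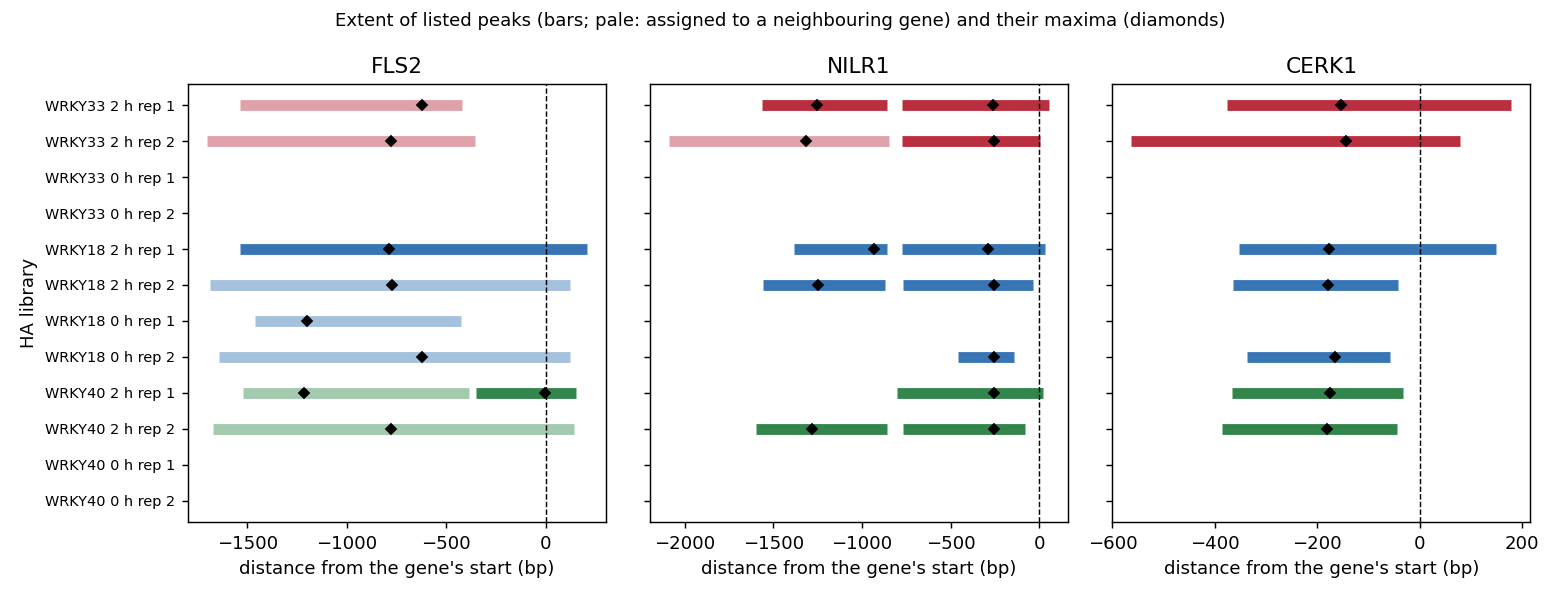
Extent of the listed peaks at FLS2, NILR1 and CERK1 in each HA library, as distance in bp from the gene's start (dashed line; upstream is negative). Bars are peaks, pale where assigned to a neighbouring gene, and diamonds mark the maxima. The FLS2 peaks are up to 1813 bp wide with maxima at several places, those of NILR1 form 2 separate sites, and those of CERK1 form 1 narrow site.

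EFR, the receptor for EF-Tu, had a weak promoter peak in 2 libraries at 2 h. The score was 11.3 in replicate 2 of WRKY33, with 178 tags against 19 in WT, and 10.3 in replicate 1 of WRKY18, with 304 tags against 6 in WT. The lowest score in any list was about 10, so that both lay close to the limit of the lists, and they ranked 2088 of 2656 and 1727 of 1801. The peaks nevertheless overlapped by 422 bp, with maxima 22 bp apart, 334 and 312 bp upstream of the start. No EFR peak was listed for WRKY40 or at 0 h.

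NILR1, the receptor kinase of nematode responses, had the highest scores among the 7 genes in WRKY33. Its peak next to the start, at chr1:27953430-27954286 over all libraries, scored 48.6 and 73.6 in the WRKY33 line at 2 h, 18.8 and 39.0 in WRKY18 at 2 h, and 31.3 and 51.2 in WRKY40 at 2 h. It ranked 7 of 1653 and 7 of 2656 in the WRKY33 lists, 685 of 1801 and 237 of 2994 in the WRKY18 lists, and 282 of 2017 and 207 of 3272 in the WRKY40 lists. By rank both WRKY33 libraries stood above the other 4, while by score the lower WRKY33 value was below the higher WRKY40 value. The maxima of all 7 libraries with this peak lay within 35 bp of each other, between 254 and 289 bp upstream of the start.

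The NILR1 peak held 1021 and 1017 tags in the WRKY33 line, 1011 and 1264 in WRKY18, and 1381 and 1332 in WRKY40 at 2 h, against 19 to 34 tags in the WT libraries. Tag numbers are not scaled to library size and were not highest in WRKY33. The authors' tag ratio was 16.8 and 21.4 in the WRKY33 line, 9.61 and 12.1 in WRKY18, and 13.1 and 15.9 in WRKY40, and both WRKY33 values were above the other 4. The WT score at this peak was high among the WT scores of each list: at 2 h it stood at percentiles 96.3 and 99.8 of the WT scores in the WRKY33 lists, 85.1 and 99.8 in those of WRKY18, and 97.7 and 99.8 in those of WRKY40. Its part in the HA scores was not tested. At 0 h the only listed peak was that of replicate 2 of WRKY18, with a score of 15.1 and 227 tags against 10 in WT. In the same replicate of WRKY18 the score at 2 h was 2.58 times and the authors' tag ratio 1.69 times that at 0 h, and the peak was 737 bp wide at 2 h, against 320 bp at 0 h, with its maximum at the same base.

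A second NILR1 site lay farther upstream, with maxima 932 to 1315 bp from the start, and was annotated as intergenic. It scored 22.7 and 28.6 for WRKY33 at 2 h and 11.2 and 12.3 for WRKY18 at 2 h, and for WRKY40 it was listed in replicate 2 alone, with a score of 17.0. Both WRKY33 scores were above the other 3. In replicate 2 of WRKY33 this peak was 1239 bp wide and was assigned to the neighbouring gene DPMS2 (AT1G74340). The site next to the start scored 2.15 and 2.58 times the upstream site in WRKY33, 1.68 and 3.17 times in WRKY18, and 3.01 times in replicate 2 of WRKY40. The upstream site had no listed peak at 0 h.

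BAK1, the coreceptor of FLS2 and EFR, had 1 assigned peak, in replicate 2 of WRKY33 at 2 h. Its score was 16.3, with 226 tags against 2 in WT, and it ranked 1011 of 2656, with its midpoint 15 bp upstream of the start. Replicate 2 of WRKY18 and of WRKY40 at 2 h also had a peak annotated to the BAK1 promoter, with scores of 11.2 and 12.2, that was assigned to the neighbouring gene AT4G33440. These did not overlap the WRKY33 peak: the nearer was 124 bp away, and their maxima were 978 and 997 bp from the WRKY33 maximum. No replicate 1 library had a peak at BAK1.

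CERK1, the LysM receptor kinase on which chitin signalling depends, had 1 narrow site at chr3:7618402-7619144, with the gene on the minus strand. It scored 31.6 and 29.4 in the WRKY33 line at 2 h, 17.7 and 26.9 in WRKY18 at 2 h, and 24.3 and 35.6 in WRKY40 at 2 h. Both WRKY33 scores were above both WRKY18 scores, and the WRKY40 scores overlapped those of each other line. The peak held 543 and 434 tags in the WRKY33 line, 514 and 614 in WRKY18, and 515 and 713 in WRKY40, against 8 to 18 in the WT libraries. The authors' tag ratio averaged 12.2 ± 1.70 for WRKY33, 10.6 ± 3.92 for WRKY18 and 14.6 ± 3.59 for WRKY40 (SD, n = 2 each), and these overlapped as well. In rank the site stood at percentiles 96.4 and 93.1 in the WRKY33 line, 57.6 and 80.4 in WRKY18, and 76.0 and 85.7 in WRKY40, with both WRKY33 libraries above the other 4.

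The CERK1 maxima in WRKY33 lay 153 and 143 bp upstream of the start, and those in WRKY18 and WRKY40 at 2 h lay 175 to 181 bp upstream. The WRKY33 peaks were 556 and 643 bp wide, those of WRKY18 503 and 323 bp, and those of WRKY40 334 and 342 bp. The ranges of maximum and width did not overlap between WRKY33 and the other lines, which was not tested. At 0 h, replicate 2 of WRKY18 had a peak with a score of 15.5 and 220 tags, against 0 tags in WT, a count that allows up to 3. In that replicate the score at 2 h was 1.74 times and the authors' tag ratio 1.82 times the value at 0 h.

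LYK4 and LYK5, the other LysM receptor kinases of chitin perception, had hardly any peaks. LYK4 had 1, an intergenic peak 3412 bp downstream of its start in replicate 2 of WRKY33 at 2 h. It had a score of 11.5, 196 tags against 14 in WT, and rank 2014 of 2656. LYK5 had 0 peaks in the 12 lists, and so had the 6 loci that neighbour it in gene order.

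**Figure D3:**
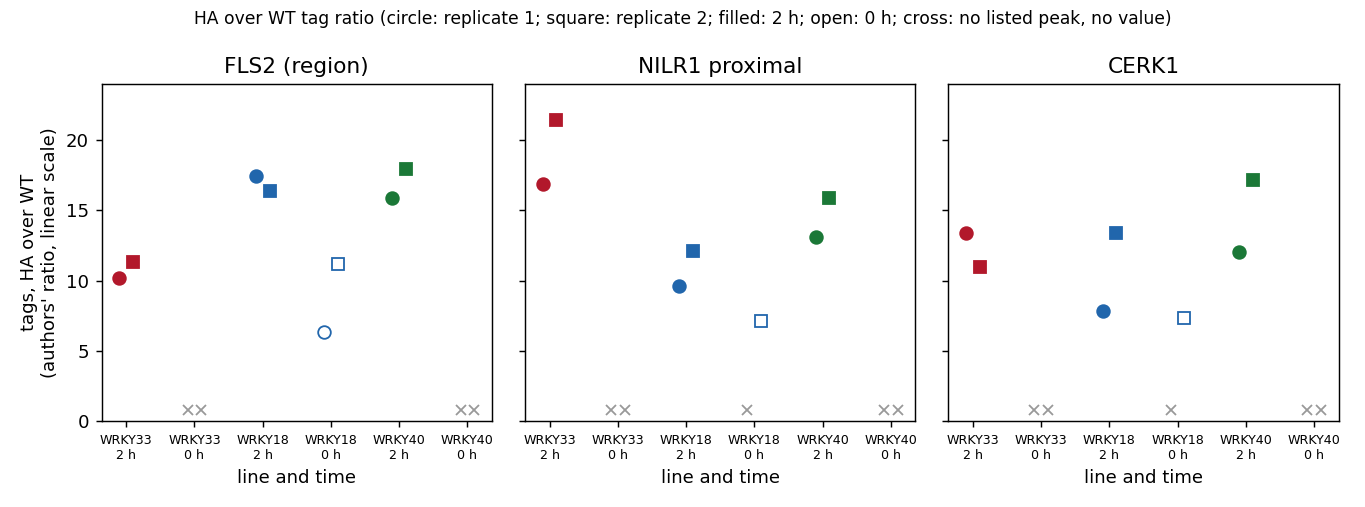
Authors' ratio of HA to WT tags (linear scale) at the FLS2 region, the NILR1 site next to the start and the CERK1 site, by line and time, with 2 h left of 0 h. Circles are replicate 1 and squares replicate 2, filled at 2 h and open at 0 h, and crosses near the axis mark libraries without a listed peak, which have no value. WRKY33 is lowest at 2 h at FLS2, with 10.2 and 11.3, and highest at NILR1, with 16.8 and 21.4.

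Whether the genes had peaks more often at 2 h than at 0 h was tested over the 12 HA libraries, with the times exchanged within each line. NILR1 and CERK1 each had a peak in 6 of 6 libraries at 2 h and in 1 of 6 at 0 h, a difference in share of 0.833 (exact permutation test, two-sided, p = 0.0278, where 0.00926 is the smallest p possible; adjusted by Benjamini-Hochberg over all 37899 loci, p = 1). No locus passed after adjustment, and none could. Only 4217 loci had a peak in any list, too few at the smallest p to reach 0.05 after adjustment. The adjusted p therefore decides nothing here. In the unadjusted exact test, 656 loci, or 1.73%, had p under 0.05 with a higher share at 2 h. The 0 h lists of WRKY33 and WRKY40 held 9 to 44 peaks, against 1653 to 3272 per list at 2 h. The unadjusted test therefore cannot tell a change at these genes from the difference in list length. FLS2 and EFR, with 2 libraries at 2 h and 0 at 0 h, gave p = 0.5, and BAK1 and LYK4, with 1 and 0, gave p = 1 in the same exact test. With the FLS2 region counted whichever gene its peak was assigned to, FLS2 had 6 libraries at 2 h and 2 at 0 h, a difference in share of 0.667 (exact permutation test, p = 0.0556). With exchange within line and replicate, in which each line's replicate number is kept, NILR1 and CERK1 both gave p = 0.0625 in the exact test. Without WRKY18, whose 0 h lists were the longest, the difference in share was 1 for both. The exact permutation test then gave p = 0.0556 for both, the smallest p possible without that line.

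Whether the peaks ranked differently in WRKY33 than in WRKY18 and WRKY40 at 2 h was tested on rank percentiles, with 2 libraries against 4, for which the smallest p possible is 0.0667. NILR1 averaged 99.7 in WRKY33 and 83.5 in the other lines, a difference of 16.2 percentile points (exact permutation test, two-sided, p = 0.267, adjusted over 4063 loci p = 0.610). Within replicate 1 the NILR1 difference was 25.6 and within replicate 2 it was 6.86. CERK1 averaged 94.8 in WRKY33 and 74.9 in the other lines, a difference of 19.8 percentile points (exact permutation test, p = 0.133, adjusted p = 0.492), with 29.6 in replicate 1 and 10.04 in replicate 2. Both WRKY33 libraries ranked above all 4 others at 2 of the 7 genes, NILR1 and CERK1. LYK5 had no peak and was not in this test. Of all loci with a peak at 2 h, 12.1% met the rule, counting also loci with peaks in WRKY33 alone, where the other lines stood at 0. None of the 4063 loci passed after adjustment in this permutation test, and 0 had an unadjusted p under 0.05, which the number of libraries does not allow.

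The measure of strength moved the comparison of lines more at CERK1 than at NILR1, and no measure gave a call at either gene. On the log2 scale of the authors' tag ratio, NILR1 was higher in WRKY33 by 0.61 (exact permutation test, p = 0.133), and on the log2 scale of the score by 0.86 (p = 0.2 in the same exact test). For CERK1 the difference in log2 tag ratio was 0.000396 (exact permutation test, p = 0.933) and in log2 score 0.27 (p = 0.533 in the same exact test). With every list at 2 h cut to its best 1653 peaks, the CERK1 difference in rank was 27.5 percentile points (exact permutation test, p = 0.0667, the smallest possible). EFR, BAK1 and LYK4 averaged 10.7, 31.0 and 12.1 percentile points in WRKY33, against 1.04, 0 and 0 in the other lines (exact permutation test, p = 0.333 each), and each of these rests on 1 WRKY33 library, replicate 2.

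**Figure D4:**
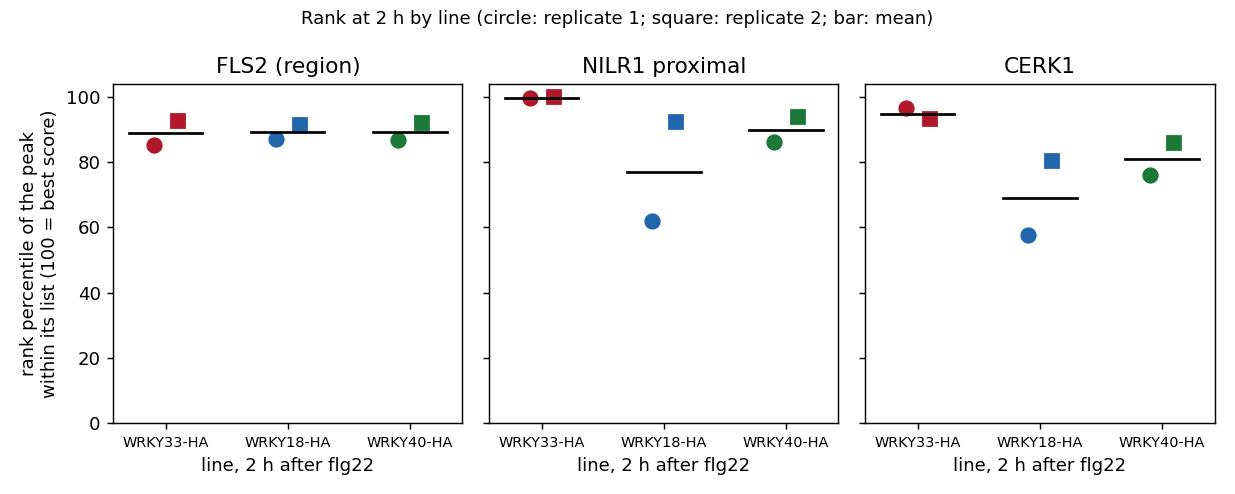
Rank percentile at 2 h (100 is the best score of a list) of the FLS2 region, the NILR1 site next to the start and the CERK1 site, by line. Circles are replicate 1, squares replicate 2 and bars the mean of both. The FLS2 region lies between 85.2 and 92.5 in all lines, while WRKY33 is above the other lines at NILR1 and CERK1.

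The loci whose rank percentiles over the 12 HA libraries were closest to those of NILR1 and CERK1 were sought by Euclidean distance. Nearest to NILR1 were CERK1, at 19.7 percentile points, AT1G65486, at 19.7, and the heat shock factor gene HSF A4A (AT4G18880), at 25.0. Nearest to CERK1 were the receptor-like cytoplasmic kinase gene CRCK1 (AT5G58940), at 16.7, NILR1, at 19.7, and AT1G65486, at 20.9. All 5 loci shared 1 pattern: a peak in all 6 libraries at 2 h, a peak at 0 h in replicate 2 of WRKY18, and the highest percentiles in WRKY33. The loci were picked for closeness in these same values, so a shared pattern follows from the choice and is not a separate result.

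Of 32 other genes of pattern recognition, which were listed as receptors, coreceptors and early partners, 6 had a peak in both libraries at 2 h for WRKY33, 7 for WRKY18 and 6 for WRKY40, which is 18.8%, 21.9% and 18.8% of the list, against 3.1%, 3.5% and 3.95% of all loci. For at least 1 line this held for 9 of the 32, against 5.6% of all loci, and for all 3 lines for 3 of the 32, against 1.56% of all loci: BIR1, a kinase that interacts with BAK1, PUB12, a ubiquitin ligase that acts on FLS2, and XLG2, an extra-large G protein that couples to FLS2. In any of the 12 lists, 15 of the 32 had a peak, against 11.1% of all loci. The 32 genes were chosen with earlier results of these data known, and all loci include non-coding ones. The 17 without one included SERK1, SERK2, SERK4 and SERK5, the close relatives of BAK1, the coreceptor kinase SOBIR1, and LYM1 and LYM3, LysM proteins of peptidoglycan perception. At 0 h, 1 of the 32, LYM2, had a peak in both libraries of WRKY18, against 0.546% of all loci, and none in both libraries of WRKY33 or of WRKY40.

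The genes of that list differed in which line gave the higher scores. LORE, the receptor of bacterial 3-hydroxy fatty acids, scored 26.9 in replicate 1 of WRKY33 with no peak in replicate 2, 72.8 and 36.3 in WRKY18, and 67.0 and 48.0 in WRKY40 at 2 h. LYM2, a LysM protein of chitin responses at plasmodesmata, scored 10.2 in replicate 1 of WRKY33 with no peak in replicate 2, 32.7 and 32.1 in WRKY18, and 48.9 and 39.9 in WRKY40 at 2 h, and in WRKY18 at 0 h it scored 24.8 and 25.2. BIK1, the cytoplasmic kinase that FLS2 and BAK1 phosphorylate, had no WRKY33 peak and scored 18.4 and 33.6 in WRKY18 and 19.5 and 47.1 in WRKY40 at 2 h. These 3 genes had a peak in both libraries at 2 h of WRKY18 and of WRKY40, but not of WRKY33.

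PUB12 had peaks in all 6 libraries at 2 h, with 11.7 and 13.6 in WRKY33, 36.7 and 26.5 in WRKY18, and 41.5 and 42.5 in WRKY40. BIR1 scored 12.2 and 29.4 in WRKY33, 22.1 and 31.3 in WRKY18, and 28.8 and 36.5 in WRKY40, and XLG2 scored 18.3 and 21.5, 20.5 and 21.1, and 13.0 and 25.6 in the same order of lines. Both WRKY33 scores of PUB12 were below all 4 of the other lines, while those of BIR1 and XLG2 overlapped the range of the others. By rank percentile PUB12 stood at 25.8 and 44.7 in WRKY33, 89.2 and 79.6 in WRKY18, and 93.1 and 90.1 in WRKY40, again below the other lines. XLG2 stood at 75.9 and 80.9 in WRKY33, 67.2 and 69.5 in WRKY18, and 31.9 and 73.8 in WRKY40, so that by rank both WRKY33 libraries were above the other 4. BIR2, which keeps BAK1 from FLS2 before the ligand binds, had peaks in WRKY33 alone, with scores of 11.6 and 14.7. AGB1, a G protein beta subunit, scored 16.7 and 15.9 in WRKY33, 12.2 and 12.1 in WRKY18, and 12.4 in replicate 2 of WRKY40. PSKR1, the receptor of the peptide hormone phytosulfokine, scored 18.7 and 40.6 in WRKY33, at different sites with midpoints at -1994 and -502 bp from the start, and at 2 h it had a peak in replicate 2 alone of WRKY18, with 36.0, and of WRKY40, with 46.7. At 0 h, replicate 2 of WRKY18, the longest list of that time, also held a peak of PSKR1 with 33.5, BIR1 with 21.8, BIK1 with 15.4, PUB12 with 14.2 and AGB1 with 12.1. LORE had a WRKY18 peak at 0 h in replicate 1 alone, with 14.5.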

How the data were processed

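The 7 genes, the list of 32 further genes and the comparisons were chosen with earlier results of these data known. The submitters' processing notes name Bowtie 0.12.7, HOMER, cutadapt 1.2.1 and FastQC 0.11.2, with build TAIR10, and the settings of peak calling are not given here. Each HA library has its own deposited list, so replicates are not pooled in these lists. Per the file headers, a peak has a score for HA and WT, tag counts for HA and WT, a fold enrichment (a ratio of HA to WT) for scores and tags, and a −log10 q-value. The scale of the deposited score is not stated. The deposited tag ratio was smaller than the quotient of the listed tag counts at all 34 peaks described, and its formula is not given; the tag counts are not scaled to library size. The lowest deposited −log10 q-value was 16.9. Peak numbers missing from the lists (0 to 276 per list) are absent for a reason the headers do not state.

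A peak belongs to the gene the authors name as nearest. Counts are genes with a peak in both libraries of a line and time. Exact permutation tests were run on every locus, in 216 arrangements for time and 15 for line, with Benjamini-Hochberg adjustment, and were tested on simulated data. Gene names and order came from the RefSeq table of assembly TAIR10.1, in which 7 of 7 genes and 4217 of 4317 loci with a peak were found; coordinates and distances are those of the lists. All 7 genes are named, with each listed gene that had a peak in both libraries at 2 h of at least 1 line, and the 3 loci nearest in rank percentile to each of the 7 with peaks in at least 4 of 6 libraries at 2 h. Alternatives were distance limits, stricter lists, lists of equal length, overlap of replicates, leaving out each replicate or WRKY18, other measures of strength and a replicate block. Counting promoter peaks whichever gene they were assigned to (overlap of at least 1 bp) and stricter lists by tag ratio were added after seeing the data. Replicate numbers pair the samples through the WT control: the labels tie lines of 1 number and time to 1 WT control. Over 590 loci, deviations from the line mean correlated at 0.371 (WRKY33 with WRKY18), 0.360 (WRKY33 with WRKY40) and 0.715 (WRKY18 with WRKY40). Replicate 2 had the longer list at 2 h in every line. These correlations therefore cannot by themselves show a pairing of the HA samples. Tools were scipy 1.17.1, pandas 2.3.3, numpy 2.4.6 and matplotlib 3.10.9 in Python 3.11.15.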

Additional observations from a re-analysis of the deposited data

How the results depend on the processing

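Peak lists show where a peak was called, not where a factor was absent, and the short lists at 0 h limit every statement on time. By assigned peaks, 2 genes had a peak in both libraries at 2 h of each line. Leaving out each replicate in turn gave 2 to 5 genes for WRKY33, 2 to 4 for WRKY18 and 2 to 3 for WRKY40. The higher counts came from replicate 2 of WRKY33 (EFR, BAK1 and LYK4 added) and replicate 1 of WRKY18 (FLS2 and EFR added) and of WRKY40 (FLS2 added). With only the better 50% of each list by tag ratio, chosen after seeing the data, the WRKY18 count was 1, NILR1. The EFR difference between WRKY33 and the other lines was -2.08 percentile points without replicate 2 and 21.4 without replicate 1; EFR has its WRKY33 peak in replicate 2 and its WRKY18 peak in replicate 1. With the replicate block, the exact permutation test of line gave p = 0.333 for NILR1 and p = 0.111 for CERK1, the latter the smallest p possible with the block. There was no call for the pairing to change, since no locus could pass after adjustment in either test. The exact time test of NILR1 and CERK1 gave an unadjusted p of 0.0625 with the block and 0.0278 without it. Besides leaving out a replicate, 24 alternative counts were made, of which 20 gave 2 genes, 3 gave 3 genes (FLS2 added in each line when promoter peaks counted whichever gene they were assigned to) and 1 gave 1 gene. Of 79 alternative differences of single genes, 72 kept their sign, 6 became 0 and 1 changed sign. Sizes moved, as for the FLS2 line difference, -26.0 percentile points by assigned peaks and -0.37 with those promoter peaks. The 6 became 0 since the peaks of FLS2, EFR, BAK1 or LYK4 dropped out. Line comparisons in which a gene had no peak left are not among the 79. These were FLS2 without replicate 1, EFR and LYK4 with lists of equal length, and BAK1 and LYK4 without replicate 2.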
